A study of Mus musculus with 4 samples.

Results

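The BCL2 family genes that decide between survival and mitochondrial cell death were followed in lung CD11b+Ly6g+ MDSCs, which were sorted from mice of a pre-metastatic niche (PMN) model. The family was taken as 10 genes by symbol, Mcl1, Bcl2, Bcl2l1, Bcl2a1a, Bcl2a1b, Bcl2a1d, Bax, Bcl2l11, Pmaip1 and Bbc3, out of 54532 genes in the count data. All 10 were found on 1 row each, and all 10 were among the 16369 genes tested, those that reached 10 counts in any of the libraries. Each of the 4 groups was 1 mRNA library, made from cells pooled from 10 to 12 C57BL/6 mice aged 6 to 8 weeks, so no spread between replicates could be measured. All mice, the control mice included, received MCM, the medium conditioned by the mouse melanoma line B16F10, at 300 μL each day into the peritoneum, and B16F10 cells by vein on day 7. The control mice of the model received no peptide. The other groups received free thymopentin (TP5), FR17, which carries TP5 on a peptide that assembles after cleavage by MMP2, or sFD17, which assembles in the same way but has the TP5 stretch scrambled. Each peptide was given under the skin at 40 μM/kg per day from day 3, and lungs were taken on day 10. No group without MCM and B16F10 cells was compared here.

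The BCL2 family acts at the outer mitochondrial membrane. Anti-apoptotic members (Mcl1, the A1 genes, Bcl2 and Bcl2l1, which encodes BCL-XL) bind and hold back the pore-forming members Bax and Bak1, and BH3-only members (Bcl2l11, which encodes BIM, Pmaip1, which encodes NOXA, and Bbc3, which encodes PUMA) bind the anti-apoptotic members or activate the pore-formers. Neutrophils, to which Ly6g+ cells belong by their surface marker, are short-lived, depend strongly on MCL1, a protein that is degraded quickly, and also express A1. In mice A1 is encoded by several near-identical gene copies.

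Totals ran from 15543071 counts in sFD17 to 19638228 in FR17, and the TMM factors, which correct each total for the make-up of the library, from 0.849 in sFD17 to 1.17 in FR17. Levels are given as CPM (a gene's share of the TMM-scaled library total) and, between genes, as RPKM (the same per kilobase of gene length). The scaling mattered for these libraries. Against TMM, scaling by total counts alone moved the median log2 fold change of all genes by -0.21 for sFD17 against control, by 0.24 for FR17 against control and by 0.44 for FR17 against sFD17. The sort label was checked on marker genes. Neutrophil markers (12 genes, S100a8 and S100a9 among them) summed to between 30075 and 44047 CPM, and no marker of the list was at 0. Macrophage markers (10 genes) summed to 6026 CPM in control, 4837 with TP5, 2087 with sFD17 and 7839 with FR17, T cell markers (9 genes) to between 36.1 and 102 CPM and NK cell markers (8 genes) to between 27.9 and 101 CPM. FR17 had the most and sFD17 the fewest macrophage and T cell transcripts, and no marker of these lists was at 0 in any library. In bulk libraries fewer cells of a type and less RNA per cell cannot be told apart.

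The 3 A1 genes are shown by sequence because their likeness limits how reads could be given to each. They lie on chromosome 9 of GRCm38, Bcl2a1d at 88723285 to 88731914, Bcl2a1a at 88956900 to 88962419 and Bcl2a1b at 89199209 to 89207827. Their coding sequences are 519 bases each, and 12 positions differ among the copies. The first 150 coding bases, from the GENCODE M21 annotation, with capitals at the 7 positions that differ within them, were:
Bcl2a1a: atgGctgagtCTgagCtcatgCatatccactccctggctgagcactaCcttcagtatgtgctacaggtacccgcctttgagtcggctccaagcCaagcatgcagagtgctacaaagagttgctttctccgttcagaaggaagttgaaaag
Bcl2a1b: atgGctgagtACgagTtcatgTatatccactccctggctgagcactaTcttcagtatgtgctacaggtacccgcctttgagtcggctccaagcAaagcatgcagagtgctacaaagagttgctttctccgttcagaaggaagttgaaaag
Bcl2a1d: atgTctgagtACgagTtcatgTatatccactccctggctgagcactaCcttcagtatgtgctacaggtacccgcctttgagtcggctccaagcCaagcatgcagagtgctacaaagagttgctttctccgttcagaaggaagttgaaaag
Bcl2a1a and Bcl2a1b were identical at 97.9% of coding positions, Bcl2a1a and Bcl2a1d at 98.7%, and Bcl2a1b and Bcl2a1d at 98.8%. Of the 100-base stretches of one coding sequence, between 28.1% and 54.3% were found without a mismatch in the other, depending on the pair. The values of the single A1 genes are therefore uncertain, and their sum is given beside them. How reads matching several places were counted is not given. If they were left out, the sum, and each share or ratio that uses it, is affected as well.

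Promoters are shown for Mcl1 and Bcl2l11, the pair of genes past 2-fold between FR17 and sFD17 under TMM scaling. The windows run from 250 bases before to 50 bases after a RefSeq transcript start (GRCm38.p6), and 9 of the 10 genes had 14 windows between them. In the window of Bcl2l11, capitals mark the letters GTAAACA, the FOXO motif. The Mcl1 window (chr3:95658471-95658770, plus strand) and the first Bcl2l11 window (chr2:128125788-128126087, plus strand) read:
Mcl1: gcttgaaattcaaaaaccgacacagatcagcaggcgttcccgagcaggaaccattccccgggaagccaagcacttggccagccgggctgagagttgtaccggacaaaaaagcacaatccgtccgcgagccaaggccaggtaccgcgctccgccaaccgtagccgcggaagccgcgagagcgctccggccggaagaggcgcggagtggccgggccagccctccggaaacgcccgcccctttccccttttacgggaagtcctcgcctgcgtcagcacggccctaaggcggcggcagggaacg
Bcl2l11: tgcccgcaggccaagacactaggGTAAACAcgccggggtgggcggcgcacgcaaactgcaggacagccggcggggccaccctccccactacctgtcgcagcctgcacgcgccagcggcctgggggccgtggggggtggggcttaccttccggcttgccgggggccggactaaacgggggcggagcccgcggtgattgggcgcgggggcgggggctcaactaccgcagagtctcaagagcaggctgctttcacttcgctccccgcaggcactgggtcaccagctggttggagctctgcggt
FOXO factors are known regulators of Bcl2l11. GTAAACA, searched on both strands, was in 3.65% of 32851 promoter windows, and among the 14 windows of the family in 1 of Bcl2l11 and 1 of Bbc3. The NF-kB consensus was in 8.46% of all windows, and in 1 window of Bcl2l1 and 1 of Bbc3. The STAT motif TTCNNNGAA (8.30% of all windows) and the interferon response core GAAANNGAA (8.56%) were in 0 of the 14. A match of letters is not a measured binding site.

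Mcl1 (ENSMUSG00000038612, chromosome 3, 95658788 to 95663176) was the leading family transcript in every library. Its level per length was 1273 RPKM in control, 1169 with TP5, 1689 with sFD17 and 792 with FR17, and it ranked between 28 and 45 of all tested genes. It made up 76.2% of the summed RPKM of the 10 genes in control, 71.2% with TP5, 79.8% with sFD17 and 66.9% with FR17. The A1 genes followed with a summed 226 RPKM in control, 283 with TP5, 235 with sFD17 and 245 with FR17. The ratio of Mcl1 to summed A1 per length, which no scaling of libraries can change, was 5.64 in the control library, 4.13 with TP5, 7.20 with sFD17 and 3.24 with FR17. Mcl1 thus stood highest over A1 in sFD17 and lowest in FR17.

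**Figure D1:**
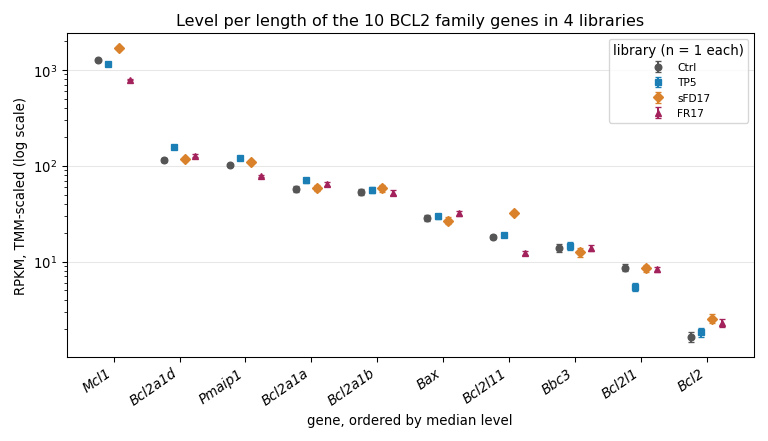
Level per length (RPKM after TMM scaling, log scale) of each of the 10 genes in the 4 libraries, with 95% exact Poisson counting intervals, which for abundant genes are smaller than the symbols. Mcl1 stands at 792 to 1689 RPKM, above every other member, and the libraries are most spread for Mcl1 and Bcl2l11.

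Of the other members, Pmaip1 had between 78.6 and 120 RPKM and Bcl2a1d between 115 and 156. Bcl2a1a had between 57.6 and 70.7 RPKM and Bcl2a1b between 52.4 and 58.1, and in control and sFD17 the counting intervals of these neighbours overlapped. Bax followed at 26.7 to 32.0 RPKM, Bcl2l11 at 12.3 to 32.4 and Bbc3 at 12.6 to 14.6. Bcl2l1 (5.41 to 8.66 RPKM) and Bcl2 (1.65 to 2.54 RPKM) were the lowest in every library. The order of the first 5 and of the last 2 genes was the same in the 4 libraries. Bcl2l11 changed place, standing above Bax in sFD17 and below Bbc3 in FR17, where the 2 counting intervals met at 12.8 RPKM. By role, anti-apoptotic genes made up 88.5% to 91.4% of the summed RPKM of the 10 genes, BH3-only genes 7.31% to 9.34% and Bax 1.26% to 2.70%. Among the 10 genes the ratio of anti-apoptotic to BH3-only transcripts was 11.3 in the control library, 9.51 with TP5, 12.5 with sFD17 and 10.0 with FR17. Other genes of these roles are not counted here. In control they include BH3-only Bid, Bad and Bmf (11.4, 9.29 and 6.55 RPKM), pore-forming Bak1 (14.1) and anti-apoptotic Bcl2l2 (2.51). Transcript ratios of this kind say nothing of the proteins.

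**Figure D2:**
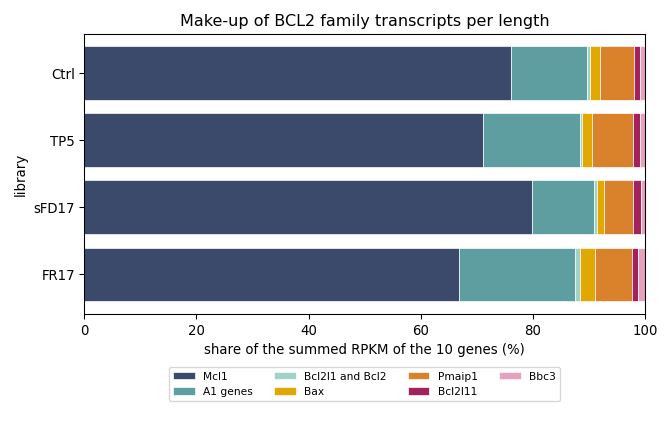
Share (%) of the summed RPKM of the 10 genes that each gene, or group of genes, takes in each library, as stacked bars from 0 to 100. Mcl1 takes 66.9% in FR17 and 79.8% in sFD17, and the A1 genes take 20.7% and 11.1% there.

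Which members differed between a peptide library and the control library was asked first. A gene was counted as past the threshold at a change of at least 2-fold, and the interval of each ratio is an exact 95% interval that covers counting error only. None of the 10 members passed 2-fold against control with TP5, sFD17 or FR17. Of all tested genes, 8.18% passed 2-fold with TP5, 11.8% with sFD17 and 7.5% with FR17. At 1.5-fold, 1 member passed with TP5 (Bcl2l1), 2 with sFD17 (Bcl2l11 and Bcl2) and 1 with FR17 (Mcl1), where 20.8%, 29% and 22.7% of all genes did. Of the 9800 genes with at least 50 counts in every library, 7.67%, 16.4% and 11.7% did, so the members' counts were near the background in each comparison. These calls depend on the scaling: with total counts alone 1 member passed 1.5-fold in each comparison, Bcl2l1 with TP5, Bcl2l11 with sFD17 and Bcl2, higher, with FR17, where 21%, 32.9% and 28.4% of all genes did. With edgeR's exact test of the 2 libraries, 0 members had an unadjusted p under 0.05 against control in any of these comparisons, as with DESeq2's Wald test, and 311, 764 and 290 of all tested genes did with edgeR.

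Mcl1 had 73494 counts in control, 70056 with TP5, 76206 with sFD17 and 62180 with FR17. This was 4351 CPM in control, 3994 with TP5, 5774 with sFD17 and 2709 with FR17. The sFD17 library was highest and the FR17 library lowest, also with total counts alone. Relative to control, the ratio was 0.918 with TP5 (0.908 to 0.927), 1.33 with sFD17 (1.31 to 1.34) and 0.623 with FR17 (0.616 to 0.629). The ratios were 0.951, 1.14 and 0.738 with total counts alone. Per 100 counts of the 12 neutrophil markers, Mcl1 had 12.98 counts in control, 10.8 with TP5, 13.1 with sFD17 and 9.01 with FR17. On this measure sFD17 stood beside control and FR17 was lowest, but the order depends on the marker. Per 100 counts of Csf3r alone, Mcl1 had 87.9, 112, 97.1 and 112 counts in control, TP5, sFD17 and FR17.

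The A1 genes are anti-apoptotic, and their sum was highest in TP5. Summed, they had 190 CPM in control, 239 with TP5, 197 with sFD17 and 206 with FR17. The ratio of the sum to control was 1.26 with TP5 (1.20 to 1.32), 1.04 with sFD17 (0.987 to 1.10) and 1.08 with FR17 (1.04 to 1.13). Scaled by total counts alone, FR17 stood at 1.29 and sFD17 at 0.895, beside 1.30 for TP5, so the gap between TP5 and FR17 and the direction in sFD17 depend on the scaling. Bcl2a1d, the most abundant copy, had 1676, 2363, 1341 and 2531 counts, or 99.2 CPM in control, 135 with TP5, 102 with sFD17 and 110 with FR17. Bcl2a1a had 47.2, 57.9, 48.2 and 52.8 CPM in the same order of libraries, and Bcl2a1b 43.4, 45.9, 47.5 and 42.8. In TP5 the ratio to control was 1.36 for Bcl2a1d, 1.23 for Bcl2a1a and 1.06 for Bcl2a1b, and the interval of the last (0.956 to 1.17) held 1. Bcl2a1b shares 401 of its 817 exon bases with Gm29094 on the same strand, which had 0 to 2 counts.

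Bcl2l1 (chromosome 2, 152780668 to 152831728), which encodes BCL-XL, set TP5 apart from the other libraries. Its counts were 671 in the control library, 435 with TP5, 517 with sFD17 and 873 with FR17, or 39.7, 24.8, 39.2 and 38.0 CPM. The TP5 library was low and the other 3 lay close together. Scaled by total counts alone, TP5 was again lowest at 25.3 CPM, and the others ran from 33.3 in sFD17 to 44.5 in FR17. The ratio to control was 0.624 with TP5 (0.552 to 0.705), 0.986 with sFD17 (0.878 to 1.11) and 0.957 with FR17 (0.865 to 1.06). Among the 9800 genes, 2.99% had a lower fold change in TP5. Markers of fibroblasts (6 genes) were also lower in TP5, at 138.9 CPM against 246.6 in control, with 6 of 6 genes lower, and endothelial markers (6 genes) at 81.6 against 113 CPM. Macrophage markers were at 0.803 times control in TP5 and at 0.346 times in sFD17. Markers of lung epithelium (6 genes) and dendritic cells (8 genes) were higher in TP5, at 1.48 and 1.77 times control. The part of these cell types in the Bcl2l1 value was not tested.

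Bcl2 (chromosome 1, 106538178 to 106714274), the first known member of the family and more a lymphocyte than a neutrophil transcript, was scarce. It had 255, 293, 307 and 483 counts in control, TP5, sFD17 and FR17, or 15.1, 16.7, 23.3 and 21.0 CPM. Control and TP5 were low and sFD17 and FR17 high. The ratio to control was 1.11 with TP5 (0.932 to 1.31), 1.54 with sFD17 (1.30 to 1.83) and 1.39 with FR17 (1.19 to 1.63), and with total counts alone FR17 was the highest at 1.65. In FR17 all 9 T cell markers and all 8 NK cell markers were also higher than in control, by 1.81-fold and 2.98-fold in their sums. In sFD17 the T cell sum was 0.637 times and the NK cell sum 0.830 times that of control. The B and plasma cell sum (8 markers) was 1.43 times control in TP5, 1.04 times in sFD17, with 6 of 8 genes higher, and 1.30 times in FR17. The part of lymphocytes in the Bcl2 level was not tested.

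The BH3-only gene Bcl2l11 (chromosome 2, 128126038 to 128162547) spanned the widest range of the 10 members. It had 2449 counts in control, 2662 with TP5, 3436 with sFD17 and 2263 with FR17, or 145, 152, 260 and 98.6 CPM. Control and TP5 stood close together, sFD17 above both and FR17 below both. The ratio to control was 1.05 with TP5 (0.990 to 1.11), 1.80 with sFD17 (1.70 to 1.89) and 0.680 with FR17 (0.642 to 0.720). These became 1.08, 1.55 and 0.806 with total counts alone. Relative to Bbc3, another BH3-only gene, Bcl2l11 had 493 counts per 100 counts of Bbc3 in the control library, 490.2 with TP5, 973 with sFD17 and 336 with FR17. That comparison needs no scaling of libraries, and in it sFD17 was again highest and FR17 lowest. Per 1000 counts of the neutrophil markers Bcl2l11 had 4.33, 4.10, 5.91 and 3.28 counts in the same order of libraries, with the same extremes. The place of FR17 depends on the gene it is set against. The ratio of Mcl1 to Bcl2l11 per length was 70.5 in control, 61.8 with TP5, 52.1 with sFD17 and 64.5 with FR17. Against Mcl1, Bcl2l11 thus stood lowest in control and highest in sFD17.

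Pmaip1 (chromosome 18, 66458604 to 66465550), whose product NOXA binds MCL1, had 4549 counts in control, 5564 with TP5, 3831 with sFD17 and 4772 with FR17. Its level was 269, 317, 290.3 and 208 CPM, highest in TP5 and lowest in FR17. Per 1000 counts of the neutrophil markers it had 8.04, 8.57, 6.59 and 6.91 counts in the same order, lowest in sFD17. The ratio to control was 1.18 with TP5 (1.13 to 1.23), 1.08 with sFD17 (1.03 to 1.13) and 0.772 with FR17 (0.741 to 0.804). Scaled by total counts alone, sFD17 stood at 0.928, so its direction depends on the scaling. Under TMM scaling Bbc3 (chromosome 7, 16308393 to 16318205), which encodes PUMA, differed little, at 29.4, 31.0, 26.7 and 29.3 CPM. The 3 intervals of its ratio to control then all held 1. Scaled by total counts alone it ran from 22.7 CPM in sFD17 to 34.3 in FR17. The intervals in sFD17 (0.681 to 0.899) and FR17 (1.05 to 1.33) then did not hold 1.

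Bax (chromosome 7, 45461697 to 45466898), the pore-forming member, had 767, 821, 556 and 1159 counts in control, TP5, sFD17 and FR17. Its level was 45.4, 46.8, 42.1 and 50.5 CPM, a narrow range with FR17 at the top, which widened to 35.8 CPM in sFD17 and 59.0 in FR17 with total counts alone. The ratio to control was 1.03 with TP5 (0.933 to 1.14), 0.928 with sFD17 (0.830 to 1.04) and 1.11 with FR17 (1.01 to 1.22). Bak1, the other pore-former, was no member and had 34.0, 43.1, 48.6 and 43.9 CPM.

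FR17 and sFD17 were compared next. Both assemble after cleavage, and they differ in whether the TP5 stretch is intact or scrambled. Bcl2l11 and Mcl1 were the 2 members past 2-fold, both lower in FR17. Of all tested genes 22.1% passed 2-fold in this comparison, and of the 9800 genes 13.5% did, so 2 of 10 members was near the background. Bcl2l11 had 98.6 CPM in FR17 and 260 in sFD17, a ratio of 0.379 (0.359 to 0.399) and a log2 fold change of -1.40. Of the 9800 genes, 3.14% had a lower log2 fold change than Bcl2l11. Mcl1 had 2709 CPM in FR17 and 5774 in sFD17, a ratio of 0.469 (0.464 to 0.474) and a log2 fold change of -1.09, with 6.81% of the 9800 genes lower. With total counts alone the log2 fold changes were -0.94 for Bcl2l11 and -0.63 for Mcl1, and neither passed 2-fold, while without the filter on low counts Mcl1 stood at -0.98. Both directions held under these settings.

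Under TMM scaling the other 8 members differed less between FR17 and sFD17, whereas with total counts alone Bax stood at a log2 fold change of 0.72, beyond the size of Mcl1. Pmaip1 had a ratio of 0.716 (0.686 to 0.747), which became 0.986 with total counts alone. Bax had a ratio of 1.20 (1.08 to 1.33). Of the A1 copies, Bcl2a1d had a ratio of 1.09 (1.02 to 1.16) and Bcl2a1b one of 0.900 (0.814 to 0.997). For Bcl2, Bcl2l1, Bcl2a1a and Bbc3 the interval held 1, as it did for the A1 sum at 1.04 (0.994 to 1.09). Under TMM the interval of Bcl2l1 ran from 0.870 to 1.08 and that of Bcl2 from 0.782 to 1.05. With total counts alone these intervals did not hold 1, at 1.34 (1.20 to 1.49) for Bcl2l1, 1.25 (1.08 to 1.44) for Bcl2 and 1.44 (1.37 to 1.51) for the A1 sum, so the scaling sets whether these members differed, and the spread between animals is in none of the intervals. Under total counts alone 7 of the 10 members were higher in FR17, against 4 under TMM. At 1.5-fold the members past the threshold were again 2 under TMM, where 46% of all genes and 37.6% of the 9800 passed. They were 5 with total counts alone, Bcl2l11 and Mcl1 lower in FR17 and Bax, Bcl2a1a and Bbc3 higher, where 56.6% of all genes passed and the median log2 fold change of all genes was 0.52.

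**Figure D3:**
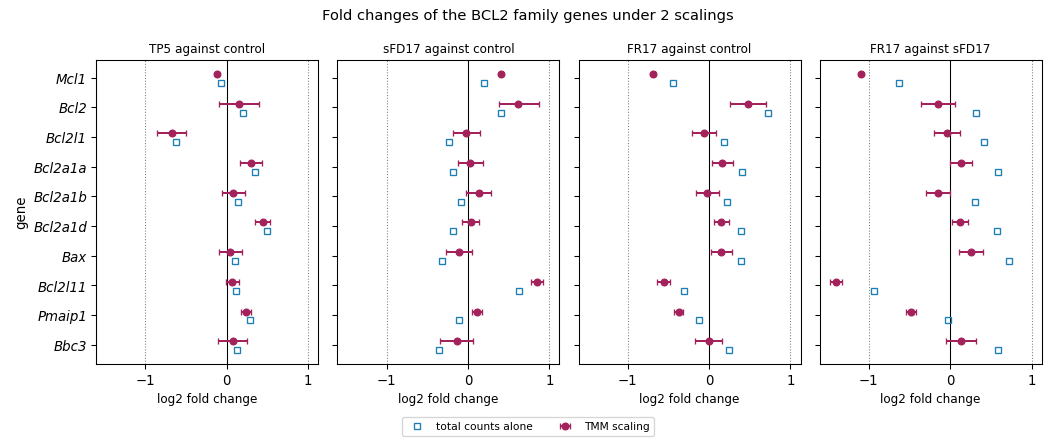
Log2 fold change of each member for the 3 comparisons with the control library and for FR17 against sFD17. Filled points are TMM-scaled with 95% counting intervals, open squares use total counts alone, and dotted lines mark 2-fold. Only Bcl2l11 and Mcl1 in FR17 against sFD17 lie past 2-fold, at -1.40 and -1.09 under TMM, and inside it with total counts alone.

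FR17 and sFD17 were each also set beside free TP5, given at the same daily dose. No member passed 2-fold in either comparison, where 9.92% of all genes did for FR17 and 12.4% for sFD17. At 1.5-fold, 3 members passed for FR17 (Bcl2l11, Pmaip1 and Bcl2l1) and 2 for sFD17 (Bcl2l11 and Bcl2l1), where 24.5% and 31.8% of all genes, and 11.3% and 19.61% of the 9800, did. Scaled by total counts alone, 1 member passed in each, Bcl2l1 for FR17 and Bcl2a1d, lower, for sFD17, where 25.8% and 39.1% of all genes did. Bcl2l11 was 0.650 times (0.614 to 0.687) the TP5 level in FR17 and 1.72 times (1.63 to 1.81) in sFD17. Bcl2l1 was 1.53 times (1.37 to 1.72) the TP5 level in FR17 and 1.58 times (1.39 to 1.80) in sFD17, so both assembling peptides stood on the same side of free TP5, as they did with total counts alone (1.75 and 1.31 times). Pmaip1 was 0.655 times (0.630 to 0.681) the TP5 level in FR17 and 0.915 times (0.878 to 0.954) in sFD17. With total counts alone it was 0.750 and 0.760 times, so the gap between FR17 and sFD17 depends on the scaling. Mcl1 was 0.678 times (0.671 to 0.686) the TP5 level in FR17 and 1.45 times (1.43 to 1.46) in sFD17. The comparisons share the TP5 library, so one unusual TP5 pool would move both.

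The genes whose levels moved most like a member's were sought among 9799 genes with at least 50 counts in every library, by the distance between their 3 log2 fold changes against control and the member's. This is a description over 4 libraries. Nearest to Bcl2l11 were Khnyn (log2 fold changes of 0.07 in TP5, 0.88 in sFD17 and -0.53 in FR17), Met and N4bp2. Nearest to Mcl1 were Gm49368, Arih2 (-0.12, 0.45 and -0.67) and Sipa1l2, and Gm49368 shares 3450 of its 4803 exon bases with the integrin gene Itgam on the same strand. Nearest to Bcl2l1 were the junction gene Tjp1 (-0.61, 0.02 and -0.06), Plpp3 and the collagen gene Col1a1 (-0.76, 0.04 and 0.03). Col1a1 had 1014, 621, 812 and 1404 counts in control, TP5, sFD17 and FR17.

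Members also share properties that could bear on their counts. Bcl2l11 and Bcl2 are in the longest of 5 equal groups of genes by length, where the median log2 fold change of FR17 against sFD17 was -0.21, and Mcl1 and Pmaip1 are in a shorter group with a median of 0.10. The part of gene length in the Bcl2l11 and Mcl1 values was not tested. Bcl2 shares 558 of 9157 exon bases with D630008O14Rik on the other strand (0 to 3 counts), and Bax shares 192 of 1576 with Gm45808 on the same strand (0 counts).

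The NF-kB factors and their feedback genes (10 genes, all tested) are upstream of A1 and BCL-XL in textbook accounts of survival signaling. In sFD17, 10 of 10 were higher than in control, 2 of them past 2-fold, where 11.8% of all tested genes passed, with a median log2 fold change of 0.66 against -0.03 over all genes. In FR17, 10 of 10 were lower, 0 past 2-fold, with a median of -0.51 against 0.02. With total counts alone 10 of 10 were higher in sFD17, 0 of them past 2-fold, and 9 of 10 lower in FR17. Nfkbie, which encodes an inhibitor of NF-kB, had 311 CPM in control, 283 with TP5, 717 with sFD17 and 214 with FR17. Nfkb2, a subunit gene, had 284, 323, 618 and 203 CPM. Mcl1 and Bcl2l11 had the same order of sFD17, control and FR17 as these genes. The A1 sum did not, at 197 CPM in sFD17, 190 in control and 206 in FR17 (168, 187 and 241 with total counts alone). Of the single copies, Bcl2a1b had that order under TMM, at 47.5, 43.4 and 42.8 CPM, and Bcl2a1a and Bcl2a1d did not. The interval of the Bcl2a1b ratio to control was 0.982 to 1.22 in sFD17 and 0.895 to 1.09 in FR17. With total counts alone Bcl2a1b did not have that order. Bcl2l1 did not have that order either, at 39.2, 39.7 and 38.0 CPM (33.3, 39.2 and 44.5 with total counts alone). The neutrophil marker sum was 1.31 times control in sFD17 and 0.897 times in FR17, with 5 of 12 markers higher in FR17, and with total counts alone 1.13 and 1.06 times, so its direction in FR17 depends on the scaling. In the same libraries the macrophage sum was 0.346 and 1.30 times control. The part of these shifts in cell markers in the Mcl1 and Bcl2l11 values was not tested.

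**Figure D4:**
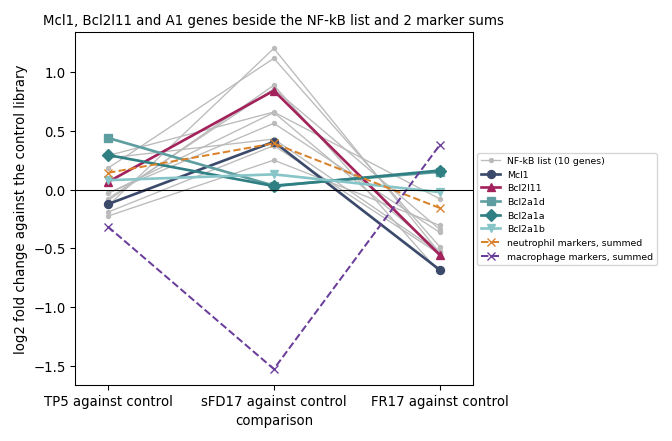
Log2 fold change against the control library of Mcl1, Bcl2l11 and the A1 genes, with the 10 genes of the NF-kB list in gray and the summed neutrophil and macrophage markers dashed; lines join the values of 1 gene or sum and carry no time order. Mcl1, Bcl2l11 and the NF-kB list lie above 0 in sFD17 and below 0 in FR17. The A1 genes lie between -0.02 and 0.16 in both, with Bcl2a1b at 0.13 in sFD17 and -0.02 in FR17. With total counts alone the A1 genes lie below 0 in sFD17 and above 0 in FR17. Nfkb1 of the list then lies above 0 in FR17.

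Receptors and STAT factors that carry survival signals to neutrophils (12 genes) had 10 higher and 2 lower in sFD17, 0 past 2-fold, and 3 higher and 9 lower in FR17, 1 past 2-fold, where 7.5% of all tested genes passed. The list's median log2 fold change was 0.28 in sFD17 and -0.31 in FR17, beside -0.03 and 0.02 over all genes. The gene past 2-fold was Csf3r, the receptor for G-CSF, with 4952 CPM in control, 3571 with TP5, 5947 with sFD17 and 2409 with FR17 and a ratio of 0.486 (0.481 to 0.492) in FR17. Csf3r had the same order of libraries as Mcl1. It is also 1 of the 12 neutrophil markers, of which 5 (Ly6g, Camp, Ltf, Ngp and Lcn2) stood above control in FR17 and 7 below it under TMM. The part of this split among neutrophil genes in the Mcl1 values was not tested. Stat3, which acts below this receptor, had 618, 551, 947 and 387 CPM. Scaled by total counts alone, 7 of 12 were higher in sFD17 and 8 of 12 lower in FR17, and Csf3r was no longer past 2-fold in FR17, at a log2 fold change of -0.79. Genes for the turnover of the MCL1 protein (6 tested of 7) had 0 past 2-fold in any comparison with control, and their median log2 fold change was 0.29 in sFD17 and -0.32 in FR17, beside -0.03 and 0.02 over all genes. They were 0.07 and -0.08 with total counts alone, beside -0.23 and 0.26 over all genes.

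Of the stress factors above BH3-only genes (11 genes), 0 passed 2-fold against control in any peptide library. Of the p53 pathway (13 tested of 14), to which Bbc3, Pmaip1 and Bax answer, 1 gene passed 2-fold against control. It was Perp in sFD17, with 252 counts in control and 49 in sFD17, where 11.8% of all tested genes passed. With total counts alone 3 genes passed 2-fold lower in sFD17, where 2114 of the 16369 tested genes passed in either direction. Trp53 itself had log2 fold changes of 0.13, -0.01 and 0.20.

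The other BCL2 family genes (12 tested of 16) had 1 gene past 2-fold lower in TP5 and in FR17 and 0 in sFD17. Of all tested genes 8.18%, 7.5% and 11.8% passed there, so 1 of 12 was near the background. The gene was Bcl2l15, outside the rule for named genes, with only 10, 4, 6 and 3 counts. It met the filter on low counts in the control library alone, which favors lower values in the other libraries. Another gene, Bcl2l12, passed 2-fold higher in FR17 with total counts alone, where 1407 of the 16369 tested genes passed in either direction. Of the apoptosome and caspase genes (14 genes), which act after the mitochondrial pore, 0 passed 2-fold in any of the 6 comparisons. With total counts alone 2 passed higher in FR17 than in sFD17, where 4991 of the 16369 tested genes passed. The list's median log2 fold change was 0.25 with TP5, -0.07 with sFD17 and 0.19 with FR17. All tested genes had 0.00, -0.03 and 0.02. With total counts alone the list had 0.30, -0.29 and 0.43, beside 0.05, -0.23 and 0.26 over all genes. Of the inhibitors of apoptosis (9 genes), Naip1 passed 2-fold lower in TP5 and sFD17, with 68 counts in control, 24 in TP5 and 12 in sFD17. Of all tested genes 8.18% and 11.8% passed there, so 1 of 9 was near the background. Naip1 is one of several similar Naip copies, and its reads may be split among them.

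The death receptor pathway (14 genes) is the other route to caspases. In sFD17, 13 of 14 were higher than in control and 5 passed 2-fold, where 11.8% of all tested genes did, and the median log2 fold change was 0.74 beside -0.03 over all genes. In TP5, 0 of the 14 passed. Fas, the receptor for FasL, had 61.8 CPM in control, 53.2 with TP5, 133 with sFD17 and 40.5 with FR17, the same order of libraries as Mcl1. The kinase-like gene Mlkl, which executes necroptosis, had a ratio of 2.39 (1.73 to 3.33) in sFD17, and the ligand gene Tnfsf10 of 2.22 (1.61 to 3.10). In FR17, 1 of the 14 genes passed 2-fold, near the background of 7.5% of all tested genes. It was Fasl, with 17 counts in control, 19 with TP5, 21 with sFD17 and 66 with FR17. Fasl is a transcript of T and NK cells, whose marker sums were highest in the same library, and their part in it was not tested. With total counts alone 11 of 14 genes were higher in sFD17, 1 of them past 2-fold, where 2114 of the 16369 tested genes passed in either direction.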

How the data were processed

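CD11b+Ly6g+ cells from lungs of PMN model mice were profiled by mRNA sequencing in 4 libraries, 1 per group. Raw counts of reads on each gene were deposited by the authors, with coordinates and lengths, in 1 column per library; 0 columns were left unmapped. The submitters' processing notes name HISAT2 2.0.5, StringTie 1.3.3b, featureCounts 1.5.0-p3, edgeR 3.18.1 and GRCm38.p6. The kit keeps the strand, and the strand setting of the counting is not given in the sources used here. How reads matching several places were counted is not given either, which bears on the A1 genes.

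Counts were processed with R 4.3.3, edgeR 4.0.16 and DESeq2 1.42.0, and with Python 3.11.15, pandas 2.3.3, numpy 2.4.6, scipy 1.17.1 and matplotlib 3.10.9. A gene was tested if any library reached 10 counts. Log2 CPM were computed in edgeR (TMM scaling, prior count 2), and fold changes are their differences. With 1 library per group no replicate test was possible, so a gene was called at a 2-fold change, and edgeR's exact test and DESeq2's Wald test, with dispersions over the 4 libraries as 1 group, compare libraries and not conditions. Ratios of counts carry exact (Clopper-Pearson) and levels exact Poisson 95% intervals, which cover counting error only. A gene with 0 counts could still have had 3, or 0.131 to 0.227 CPM. The quasi-likelihood test needs replicates and was not used. Of each gene list, up to 3 genes per comparison with control were named, those past 2-fold with at least 50 counts. Other genes named (Bak1, Bid, Bad, Bmf, Bcl2l2, Bcl2l12, Bcl2l15, Nfkb1, Stat3, Ly6g, Camp, Ltf, Ngp, Lcn2 and Trp53) were chosen after their values were seen. The patterns most like a member's were sought for the 3 members with the widest range. The members and lists were chosen with earlier results of these data known. The scripts were tested on simulated data. Coding sequences came from GENCODE M21, in which 9 of the 10 members have the coordinates of the deposited counts. Pmaip1 has other coordinates and another length there. Promoter windows came from RefSeq.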

Additional observations from a re-analysis of the deposited data

How the results depend on the processing

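No paired analysis was possible because each group has 1 library. The number of members past 2-fold stayed at 0 in the 3 comparisons with control, in FR17 against TP5 and in sFD17 against TP5 under DESeq2's size factors, total counts alone, no filter on low counts, 10 counts in every library, a prior count of 0.5 and both tests. At 1.5-fold it became 1 in TP5, 2 in sFD17 and 1 in FR17 against control, 3 in FR17 against TP5 and 2 in sFD17 against TP5. With 1.5-fold and total counts alone together, chosen after seeing the data, it was 1 in each of these 5 comparisons and 5 in FR17 against sFD17. In FR17 against sFD17 the 2 members became 0 with total counts alone and 1 without the filter, where Mcl1 stands at -0.98 (the cause was not tested). The number stayed at 2 with DESeq2's size factors, 10 counts in every library, a prior count of 0.5 and the 1.5-fold rule. The calls of both tests, which compare single libraries, are left out for this comparison. Over the 60 fold changes of members, the sign changed in 1 under DESeq2's size factors, in 14 with total counts alone and in 0 with a prior count of 0.5, and the largest shifts were 0.05, 0.46 and 0.00 on the log2 scale. None of the members past 2-fold changed sign. Depth limits Bcl2 most, at 255 to 483 counts, and the absence of replicates limits every comparison.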
